A study of Mus musculus with 24 samples.

Results

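The liver makes most of the complement and coagulation factors of the blood, and 38 of their genes were followed across 24 mouse liver arrays. The members were chosen by name, as the complement and clotting genes of a fixed list. No measured value entered the list, but earlier results of these data were known when it was chosen. All 38 were found on the array through the accession of their probes, with 48 probes in all, 29 members having 1 probe and 9 having more, among 16140 named genes that were well above background. Each value is the log2 ratio of a liver sample, labelled with the red dye Cy5, over a common reference RNA, labelled with the green dye Cy3, on the same Agilent 2-colour array. The livers came from male C57BL/6N mice in 6 groups. Ethanol was fed for 10 days and followed by 1 binge (n = 3), and the matching pair-fed mice, given control diet in the quantity that ethanol-fed mice consumed, were taken at 10 days (n = 3). In the long experiment ethanol was fed for 8 weeks with multiple binges at a rate of 2 per week (n = 4), for 8 weeks with 1 binge (n = 5) or for 8 weeks with no binge (n = 5), beside mice pair-fed for 8 weeks (n = 4). A binge was 5 g of ethanol per kg. The series is titled for the role of the fat-specific protein CIDEC in alcoholic liver injury, and the groups compared here differ in feeding and binge, not in genotype. The labels do not say that samples of a group are separate animals, so each p-value measures only the spread between these samples.

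Complement is a chain of plasma proteins in which recognition molecules (C1q, and the mannose-binding lectins with their MASP proteases) or the self-starting alternative pathway cut C3, after which the terminal components form a pore in the target membrane. Coagulation is a chain of proteases that ends with thrombin, which makes fibrin from fibrinogen. Several clotting proteases need vitamin K-dependent carboxylation, antithrombin and heparin cofactor II hold thrombin in check, and plasmin removes the clot. Hepatocytes are the main source of most of these proteins, with known exceptions such as C1q, made by macrophages, and Cfd (adipsin), made mostly by fat cells.

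All 38 members were well above background in Cy5 on all 24 arrays, and 0 spots were saturated. The scanner software marked 216 of the 912 member values (23.7%) as non-uniform or as population outliers, against 4.1% of the values of all genes. These marked spots were left out of the values and tests given first, so that not every member could be tested in every comparison, and the results with the marked spots kept, which cover all 38 members, stand beside them. C8a and F5 were marked on all 24 arrays, and F9 was unmarked on 1 array. The 8-week groups other than multiple binges were scanned together on mixed slides, and the 10-day groups were scanned together in another scan. The multiple-binge arrays were scanned alone on a different scanner, so multiple binges and that scan cannot be told apart. Hepatocyte markers (7 of 9 listed on the array, all well above background on every array) had mean log2 ratios of 0.28 to 0.45 in 10-day binge livers, 0.12 to 0.46 in 10-day pair-fed livers, 0.02 to 0.45 in multiple-binge livers, 0.21 to 0.34 in 8-week binge livers, -0.07 to 0.16 in 8-week ethanol livers and 0.13 to 0.38 in 8-week pair-fed livers. In whole liver, fewer cells of a type and less RNA per cell cannot be told apart.

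The 8-week binge livers stood out among the 24 arrays. The median log2 ratio over the 38 members, marked spots kept, was -0.37, -0.68, -0.54, -0.32 and -0.30 on the 5 arrays of 8 weeks of ethanol with 1 binge, and between -0.17 and 0.05 on each of the other 19 arrays. On these 5 arrays 31 to 35 of the 38 members lay below 0, against 15 to 30 on the other 19 arrays. The 30 was in 8-week pair-fed replicate 4, and the share of all genes below 0 was not computed. The map of all members by array shows the same block of low values, which crosses the complement and the coagulation rows.

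**Figure D1:**
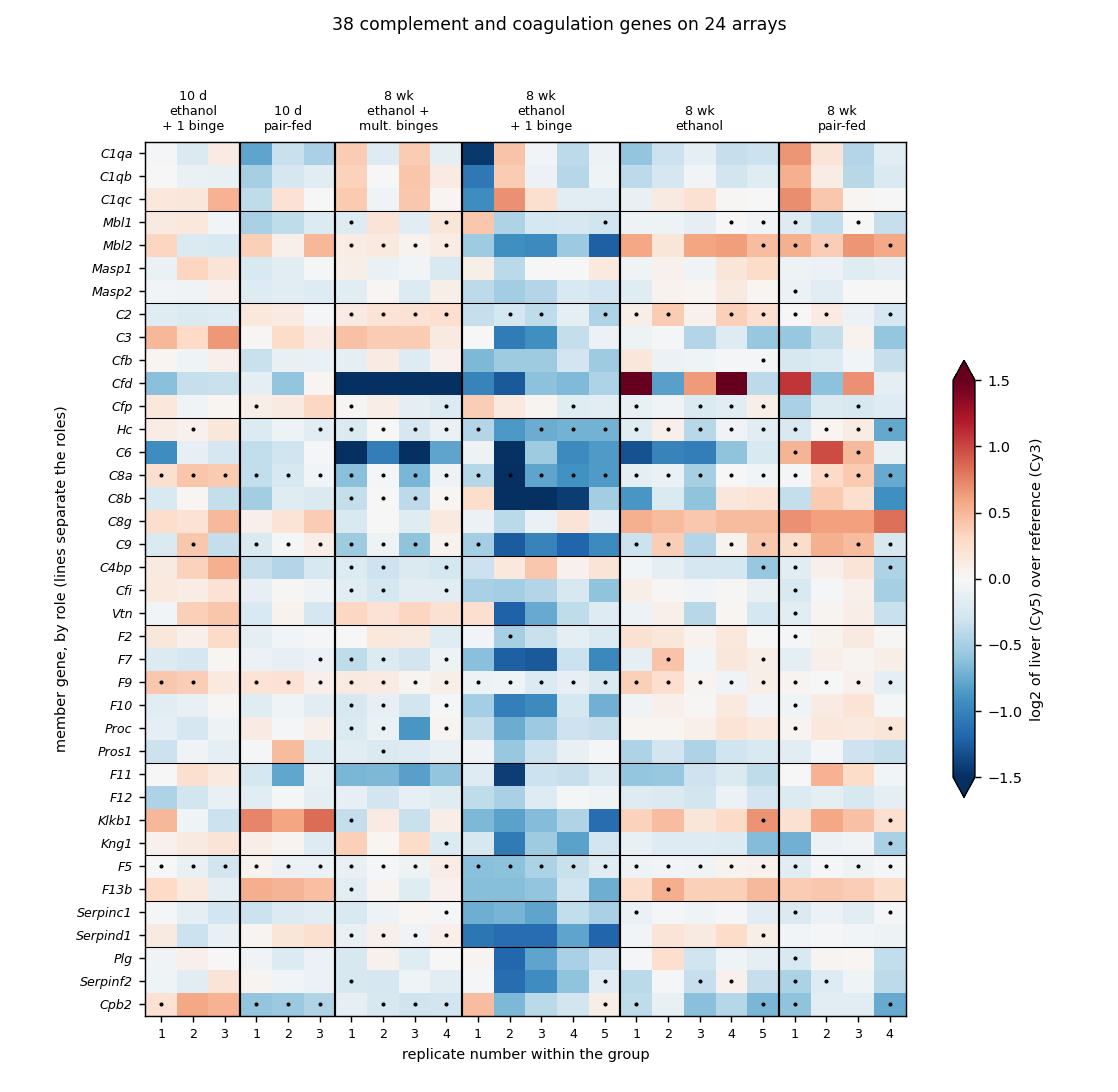
Log2 ratio of liver (Cy5) over reference (Cy3) for the 38 members (rows, grouped by role) on the 24 arrays (columns, grouped by feeding and binge), with marked spots kept and shown by a dot. The 5 arrays of 8 weeks of ethanol with 1 binge have member medians of -0.68 to -0.30, while the medians of the other 19 arrays lie between -0.17 and 0.05, and for Masp1 the map shows a different probe from the one tested.

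Does a binge on top of 8 weeks of ethanol go with a change in these genes relative to pair-feeding? In 8-week binge livers 12 of the 31 members tested were lower than in 8-week pair-fed livers and 0 were higher, and 28 of the 31 had a negative difference. Of all 15712 genes tested, 16.2% were called in either direction and 8.71% were called lower (limma, Benjamini-Hochberg adjusted p under 0.05 over all genes tested). The members' median log2 difference was -0.37, beside 0.02 over all genes. With the marked spots kept, 20 of the 38 members were called lower and 1 was called higher, beside 17.8% of all genes called, 9.65% lower and 8.11% higher. The 12 members that fell were the thrombin inhibitors Serpind1 and Serpinc1, the clotting factors F7, F10, F11, F13b and Klkb1, the protein C gene Proc, and the complement genes C6, C8g, Cfb and Masp2. The calls of 5 of them, Serpind1, Klkb1, F13b, F7 and C8g, held under all 31 alternative settings. Median centring in place of loess ended those of F10, Proc, Serpinc1, Masp2 and Cfb, and a fit of only the groups compared ended those of C6, F11, Serpinc1, Masp2 and Cfb.

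The thrombin inhibitors fell together. Serpind1, which encodes heparin cofactor II, a plasma inhibitor of thrombin, had log2 ratios of -1.07, -1.13, -1.16, -0.80 and -1.18 in 8-week binge livers, against -0.04, -0.02, -0.05 and -0.06 in 8-week pair-fed livers. The groups were far apart, with a log2 difference of -1.03 (SE 0.10, adjusted p = 1.31e-06), so that the level was 49.0% of the pair-fed one. Serpinc1, the gene of antithrombin, the main inhibitor of thrombin and factor Xa, had -0.74, -0.70, -0.83, -0.40 and -0.51 in 8-week binge livers and -0.11 and -0.19 on the 2 unmarked arrays of 8-week pair-fed livers. Its log2 difference was -0.49 (SE 0.12, adjusted p = 0.00674), a level of 71.4% of the pair-fed one, with no overlap of the groups. The call of Serpinc1 was lost with the mean of its 2 probes (-0.30, adjusted p = 0.106) and with Cy5 alone (adjusted p = 0.0789).

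In the contact system, which starts clotting on surfaces and frees bradykinin, 2 of 4 members fell. Klkb1 encodes prekallikrein, the precursor of plasma kallikrein. Its log2 ratios were -0.67, -0.80, -0.65, -0.45 and -1.14 in 8-week binge livers, against 0.23, 0.58 and 0.44 on the 3 unmarked arrays of 8-week pair-fed livers. The difference was -1.16 (SE 0.16, adjusted p = 5.57e-05), a level of 44.7% of the pair-fed one. F11, whose product factor XI activates factor IX, had -0.19, -1.41, -0.32, -0.35 and -0.21 in 8-week binge livers, against 0.01, 0.52, 0.28 and -0.03 in 8-week pair-fed livers. It differed by -0.69 (SE 0.19, adjusted p = 0.0111). All 5 binge arrays lay below all 4 pair-fed arrays, but 1 binge array was far below the other 4, and the call was lost without pair-fed replicate 2 (adjusted p = 0.0517). F12, the factor that kallikrein activates, and Kng1, the kininogen that carries bradykinin, were not called, with differences of -0.05 and -0.29. The 2 probes of Kng1 gave -0.60 and -0.29 in this comparison.

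F11 and Klkb1 lie next to each other on mouse chromosome 8, at 45240659 to 45262055 and 45266688 to 45294835 in the RefSeq annotation of GRCm38.p6, on the minus strand, with 0 coding genes between them. Their promoters, from 250 bases before to 50 bases after an annotated start, are shown because these neighbours were both called lower. The start used for F11 lies inside the gene span given above. Capitals mark matches of TTGCNNAA, the core of the C/EBP site, and of TGTTTAC, a core of the FOXA site, each searched on both strands.
F11 (chr8:45261982-45262281, minus strand): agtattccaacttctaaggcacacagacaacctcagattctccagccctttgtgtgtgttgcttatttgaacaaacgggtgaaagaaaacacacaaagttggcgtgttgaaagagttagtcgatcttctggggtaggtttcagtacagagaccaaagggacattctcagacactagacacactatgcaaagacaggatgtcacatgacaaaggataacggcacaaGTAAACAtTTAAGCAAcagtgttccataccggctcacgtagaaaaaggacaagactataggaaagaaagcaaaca
Klkb1 (chr8:45294786-45295085, minus strand): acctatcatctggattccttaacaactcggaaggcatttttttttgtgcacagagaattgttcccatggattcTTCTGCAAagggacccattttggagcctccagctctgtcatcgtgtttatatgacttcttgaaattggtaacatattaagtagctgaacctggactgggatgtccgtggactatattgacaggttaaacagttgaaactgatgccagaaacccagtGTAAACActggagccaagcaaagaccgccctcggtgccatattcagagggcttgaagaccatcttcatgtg
Of 31 promoters found for 30 of the 38 members, 7 (22.6%) held the C/EBP letters and 2 (6.45%), which are those of F11 and Klkb1, held the FOXA letters. Among all 32851 promoters of the table the shares were 10.8% and 3.65%. In the F11 window the 2 matches stand next to each other, with a single base between them. A match is only a run of letters and is not a measured binding site.

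F13b, which encodes the carrier subunit of factor XIII, the enzyme that cross-links fibrin, had log2 ratios of -0.64, -0.64, -0.58, -0.30 and -0.73 in 8-week binge livers, against 0.39, 0.41, 0.37 and 0.27 in 8-week pair-fed livers. The difference of -0.94 (SE 0.09, adjusted p = 1.07e-06), a level of 52.2% of the pair-fed one, held with no overlap of the groups.

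In the same promoters HNF4 (CAAAGTCCA) and NF-kB letters were in 0 of the member promoters and in 0.475% and 0.411% of all, and STAT3 letters (TTCCNGGAA) were in 1 (3.23%), beside 1.15% of all. The promoter table is from RefSeq, build GRCm38.p6, and both strands were searched.

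Among the vitamin K-dependent factors, F7, F10 and Proc fell while F2 and Pros1 were not called. F7 encodes factor VII, which with tissue factor starts clotting. Its log2 ratios were -0.62, -1.22, -1.26, -0.32 and -0.96 in 8-week binge livers, against -0.14, 0.09, 0.05 and 0.09 in 8-week pair-fed livers. The difference was -0.90 (SE 0.15, adjusted p = 0.000538), a level of 53.7% of the pair-fed one. F10, which lies next to F7 on chromosome 8 with 0 coding genes between them and makes the protease that cuts prothrombin, had -0.51, -1.02, -0.99, -0.29 and -0.73 in 8-week binge livers, against 0.11, 0.18 and -0.01 on the 3 unmarked arrays of 8-week pair-fed livers. It differed by -0.80 (SE 0.13, adjusted p = 0.000202), a level of 57.3% of the pair-fed one. Arrays 2 and 3 of the binge group were the lowest and array 4 the highest for both neighbours.

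Proc, the gene of protein C, which shuts down factors V and VIII, had -0.36, -0.75, -0.58, -0.34 and -0.36 in 8-week binge livers and 0.14 and 0.13 on the 2 unmarked arrays of 8-week pair-fed livers. The difference was -0.61 (SE 0.11, adjusted p = 0.000748). F2, the gene of prothrombin, differed by -0.26 (adjusted p = 0.0644) and, with marked spots kept, by -0.29 (adjusted p = 0.0249). Pros1, the cofactor of protein C, differed by -0.01. F9, which could be read only with its marked spots kept, differed by -0.13 (adjusted p = 0.332), and F5, the cofactor of factor Xa, by -0.38 (SE 0.09, adjusted p = 0.00306).

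The terminal complement genes also lay low in the 8-week binge livers. C8g, the lipocalin-like chain of C8, had log2 ratios of -0.08, -0.39, -0.10, 0.19 and -0.12 in 8-week binge livers, against 0.70, 0.62, 0.61 and 0.84 in 8-week pair-fed livers, which is a difference of -0.79 (SE 0.10, adjusted p = 1.01e-05) and a level of 57.8% of the pair-fed one. C6, an early component of the pore, had -0.06, -1.47, -0.54, -0.96 and -0.84 in 8-week binge livers and 0.99 and -0.10 on the 2 unmarked arrays of 8-week pair-fed livers. The C6 groups overlapped, and the difference was -1.22 (SE 0.34, adjusted p = 0.0146). C8b spread widely, between -2.97 and 0.28 in 8-week binge livers and between -0.91 and 0.39 in 8-week pair-fed livers, and its difference of -1.13 was not called (SE 0.43, adjusted p = 0.0829). With marked spots kept, C9, the polymer-forming subunit of the pore, differed by -1.24 (SE 0.20, adjusted p = 0.000128), C8a by -0.89 (SE 0.21, adjusted p = 0.00379) and Hc, the mouse gene of C5, by -0.48 (SE 0.13, adjusted p = 0.0112).

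Of the lectin pathway, Masp2, the protease that cuts C4 and C2, fell by 0.32 on the log2 scale (SE 0.09, adjusted p = 0.014), with -0.39, -0.52, -0.47, -0.25 and -0.29 in 8-week binge livers, against -0.18, -0.02 and 0.02 on the 3 unmarked arrays of 8-week pair-fed livers. Its 3 probes gave differences between -0.62 and -0.32. Mbl2, a mannose-binding lectin, had -0.53, -0.91, -0.99, -0.57 and -1.23 in 8-week binge livers, all unmarked, while 3 of the 4 pair-fed arrays were marked. With these kept, the 8-week pair-fed livers had 0.53, 0.37, 0.65 and 0.57, and the difference was -1.37 (SE 0.14, adjusted p = 3.49e-07), a level of 38.7% of the pair-fed one. Mbl1, the other mannose-binding lectin of the mouse, went the other way without a call, by 0.21 (adjusted p = 0.509), and Masp1, a partner protease, differed by 0.05.

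In the group of C2, C3 and the alternative pathway only Cfb, the protease subunit of the alternative C3 convertase, was called in this comparison. Its log2 ratios were -0.67, -0.53, -0.58, -0.31 and -0.55 in 8-week binge livers, against -0.26, -0.22, -0.06 and -0.34 in 8-week pair-fed livers, a difference of -0.31 (SE 0.09, adjusted p = 0.0213). The Cfb groups overlapped by 1 array, and the call was lost with slide as a block (adjusted p = 0.0585), with Cy5 alone (adjusted p = 0.0775), without pair-fed replicate 3 (adjusted p = 0.0921) and without binge replicate 1 (adjusted p = 0.0549). C3, the central component, had -0.01, -1.08, -0.96, -0.39 and -0.12 in 8-week binge livers, against -0.56, -0.38, 0.03 and -0.58 in 8-week pair-fed livers, with a difference of -0.14 that was not called (adjusted p = 0.674). Cfd, which cuts Cfb, differed by -1.06 (SE 0.42, adjusted p = 0.0907). Cfp, the stabilizer properdin, differed by 0.40 (adjusted p = 0.054) and, with marked spots kept, by 0.33 (adjusted p = 0.0284), though its Cy5 signal alone differed by -0.05. C2, next to Cfb on chromosome 17, differed by -0.26 with marked spots kept (SE 0.09, adjusted p = 0.037).

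The other members were not called without marked spots. The 3 C1q chains, C1qa, C1qb and C1qc, which lie side by side on chromosome 4, differed by -0.37, -0.26 and -0.35 with adjusted p-values of 0.374, 0.444 and 0.319, and binge replicate 1 was the lowest for each, at -1.44, -1.07 and -0.92. Among the complement regulators, C4bp, the C4b-binding protein, differed by -0.03, Cfi, the protease that inactivates C3b, by -0.31 (adjusted p = 0.0533) or, with marked spots kept, by -0.28 (adjusted p = 0.0334), and Vtn, vitronectin, by -0.40 (adjusted p = 0.219). In the fibrinolysis group Plg, plasminogen, differed by -0.45 (adjusted p = 0.0942), Serpinf2, the plasmin inhibitor, by -0.46 (adjusted p = 0.179) and Cpb2, the carboxypeptidase that slows clot removal, by -0.05. Of the calls made only with marked spots kept, those of C9, C8a and Mbl2 held in all 11 alternatives run with these spots (an array left out, slide as a block or median centring), while that of C2 was lost in 8, of Cfi in 7, of Cfp and F2 in 5 each, of Hc in 3 and of F5 in 1.

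**Figure D2:**
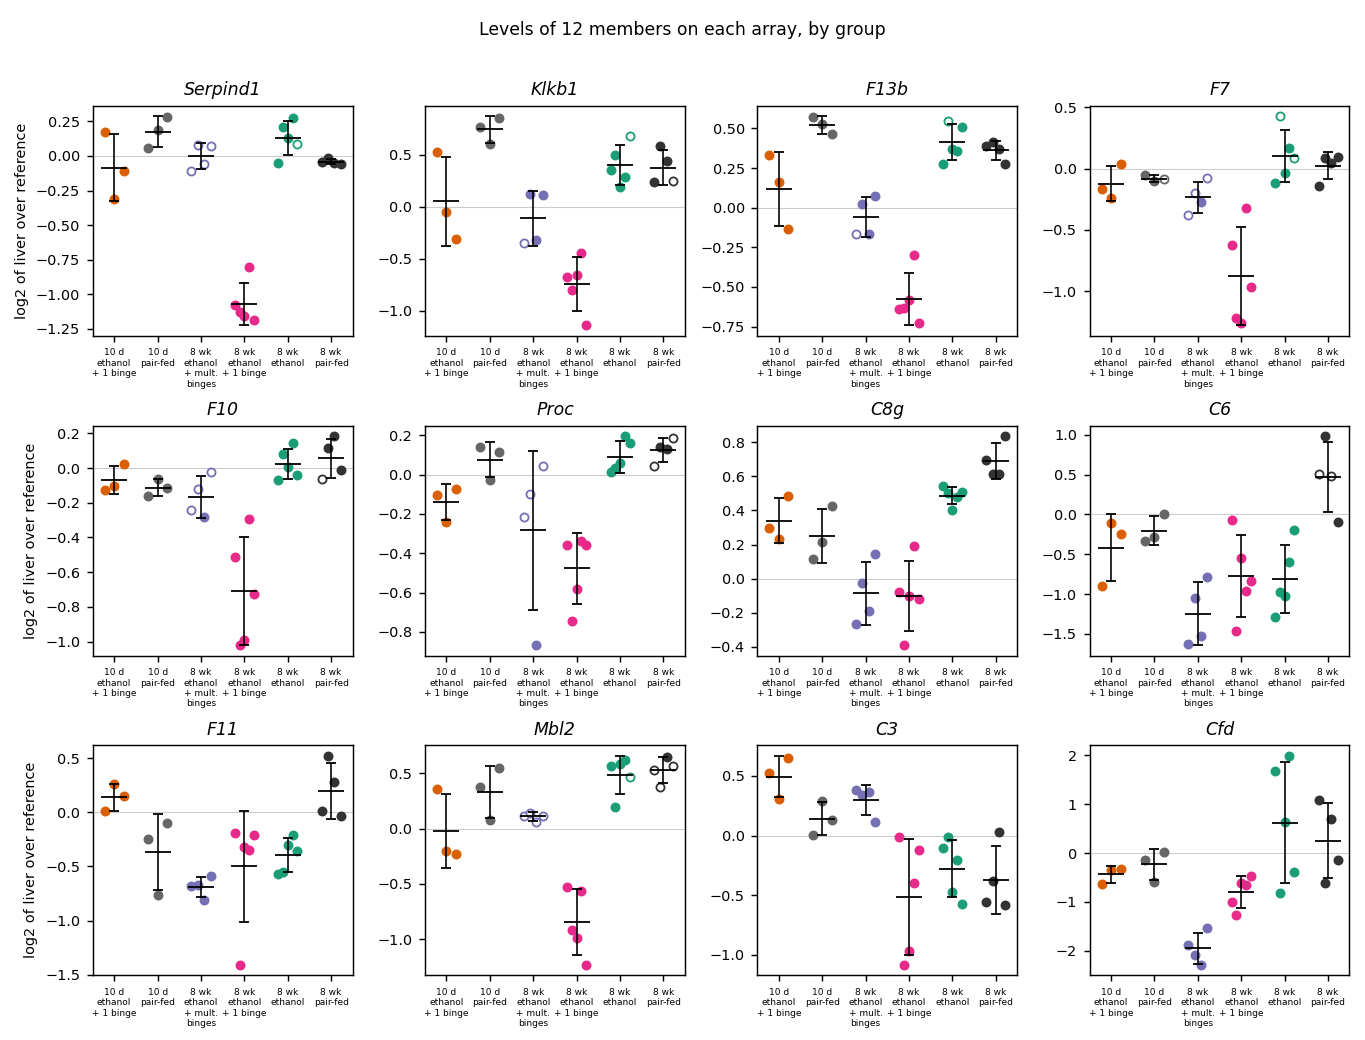
Log2 ratio of liver over reference for 12 members, 1 point per array, by group, with bars for the mean and SD and open points for marked spots. Serpind1 lies between -1.18 and -0.80 in the 5 livers of 8 weeks of ethanol with 1 binge and between -0.06 and -0.02 in the 4 livers of 8 weeks pair-fed, while Cfd is lowest in the 4 multiple-binge livers, at -2.29 to -1.54.

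Adding the binge to the same 8 weeks of ethanol was tested against 8-week ethanol livers, a comparison that shares its 5 binge arrays with the one above. Here 15 of the 31 members tested were lower in 8-week binge livers and 0 were higher, beside 16.4% of all genes called and 8.38% called lower, and the members' median log2 difference was -0.40, beside 0.01 over all genes. After marked spots were included, 21 of 38 members were called, all lower, beside 17.4% of all genes called and 8.86% called lower. Serpind1 had -0.05, 0.21, 0.13 and 0.27 on the 4 unmarked arrays of 8-week ethanol livers and was thus lower by 1.21 in the binge livers (log2 difference -1.21, SE 0.10, adjusted p = 1.81e-07). Mbl2 differed by -1.33 (SE 0.16, adjusted p = 2.72e-05), with 0.56, 0.19, 0.58 and 0.62 on the 4 unmarked arrays of 8-week ethanol livers, none of which reached down to the binge livers. F13b differed by -0.96 (adjusted p = 8.15e-07), Klkb1 by -1.07 (adjusted p = 4.96e-05) and F10 by -0.73 (adjusted p = 0.000118), and these calls, with those of Serpind1 and Mbl2, held under every alternative run. F7, Proc, Serpinc1, C8g, Cfb and Masp2 were also called, with differences between -0.88 and -0.40. Cfi (-0.46, adjusted p = 0.00135), F2 (-0.32, adjusted p = 0.0106), Cfd (-1.42, adjusted p = 0.0133) and Plg (-0.50, adjusted p = 0.0285) were called here, and the groups of Cfd and Plg overlapped. C6 and F11, called lower against 8-week pair-fed livers, were not called against 8-week ethanol livers, with differences of 0.04 and -0.10.

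The long diet alone was tested by 8-week ethanol livers against 8-week pair-fed livers. None of the 30 members tested was called by limma, and of all genes 0.153% (24 of 15664) were. At an unadjusted p under 0.05 there were 3 members, C6, F11 and Cfb, beside 1139 genes or 7.27% of all. The members' median log2 difference was -0.02, beside 0.01 over all genes. C6 had the largest difference, with -1.29, -0.97, -1.03, -0.60 and -0.19 in 8-week ethanol livers and 0.99 and -0.10 on the 2 unmarked pair-fed arrays, which is -1.26 (SE 0.34, adjusted p = 0.167). When the marked spots were kept, C6 was the 1 member called of 38, beside 0.266% of all genes, with a difference of -1.30 (SE 0.26, adjusted p = 0.0299), and the call was lost in 7 of 11 alternatives with these spots, among them slide as a block (adjusted p = 0.122). F11 differed by -0.59 (adjusted p = 0.291) and Serpind1, Klkb1 and F13b by no more than 0.18 in size. Cfd was spread over a wide range in this group, at 1.68, -0.81, 0.64, 1.99 and -0.38.

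The short experiment set 10-day binge livers against 10-day pair-fed livers. Of 33 members tested, 1 was higher and 2 were lower, beside 7.22% of all genes called, 4.32% higher and 2.9% lower, and the members' median log2 difference was 0.11, beside -0.00 over all genes. C4bp, whose product inhibits the classical C3 convertase, rose, with 0.18, 0.35 and 0.54 in 10-day binge livers, against -0.33, -0.44 and -0.19 in 10-day pair-fed livers (difference 0.67, SE 0.14, adjusted p = 0.00689). Klkb1 fell, with 0.52, -0.06 and -0.32 in 10-day binge livers, against 0.77, 0.60 and 0.85 in 10-day pair-fed livers (difference -0.69, SE 0.18, adjusted p = 0.0244). F13b fell as well, with 0.33, 0.16 and -0.13 in 10-day binge livers, against 0.57, 0.53 and 0.46 in 10-day pair-fed livers (difference -0.40, SE 0.12, adjusted p = 0.0355). For each of these genes the groups did not overlap, but each call was lost under at least 4 of 25 alternatives, and median centring ended all 3. The calls of Klkb1 and F13b were also lost without binge replicate 3 (-0.51, adjusted p = 0.143, and -0.28, adjusted p = 0.197).

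With marked spots kept, 4 of 38 members were called in the short experiment, beside 7.79% of all genes, and the added one was Cpb2. Cpb2 had 0.22, 0.60 and 0.52 in 10-day binge livers, against -0.59, -0.55 and -0.46 in 10-day pair-fed livers, a difference of 0.97 (SE 0.21, adjusted p = 0.00428), with 4 of the 6 values from marked spots. Serpind1 differed by -0.26 (adjusted p = 0.24), Mbl1 by 0.43 (adjusted p = 0.156), F11 by 0.51 (adjusted p = 0.202) and C2 by -0.28 (adjusted p = 0.15), none of which was called. F7, F10 and C8g, which fell in the long experiment, had differences of -0.04, 0.04 and 0.09 here, and the difference of the 2 effects was tested next.

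**Figure D3:**
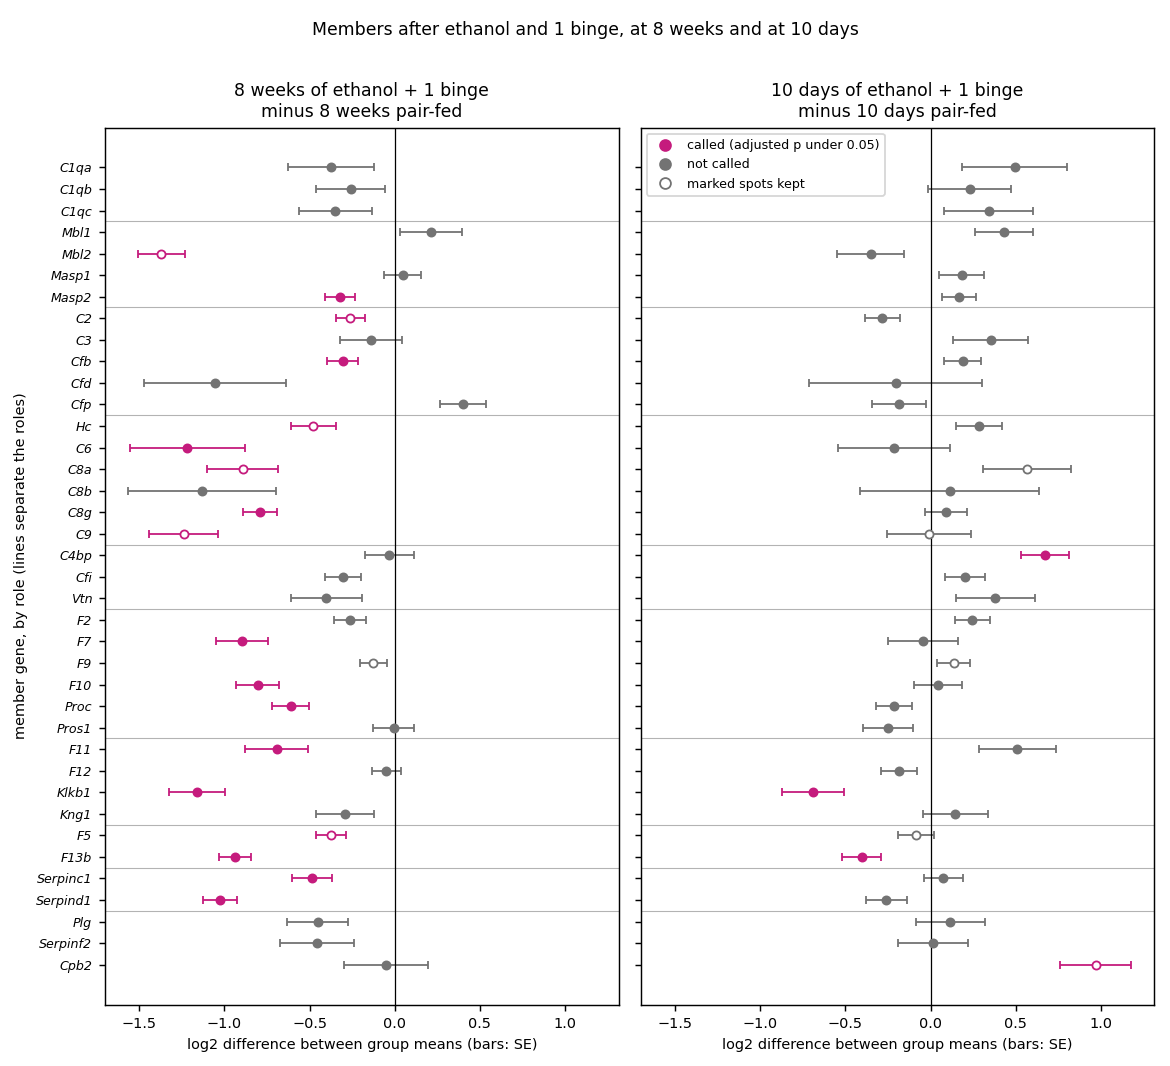
Log2 difference of each member, with its SE, for 8 weeks of ethanol with 1 binge minus 8 weeks pair-fed (left) and for 10 days of ethanol with 1 binge minus 10 days pair-fed (right), with open points for members that could be tested only with marked spots kept. On the left 28 of the 31 members tested without marked spots lie below 0, with a median of -0.37, and on the right 21 of 33 lie above 0, with a median of 0.11.

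The effect at 8 weeks minus the effect at 10 days was tested as an interaction. Of 30 members tested, 6 were called, all with a negative difference, beside 3.35% of all genes called and 2.41% called negative. After marked spots were included, 14 of 38 were called, all negative, beside 4.37% of all genes called and 3.14% called negative. The 6 were C8g (-0.88, SE 0.16, adjusted p = 0.00163), Serpind1 (-0.77, SE 0.16, adjusted p = 0.00811), F10 (-0.85, SE 0.19, adjusted p = 0.0156), F11 (-1.20, SE 0.29, adjusted p = 0.0206), Masp2 (-0.49, SE 0.13, adjusted p = 0.0428) and F2 (-0.51, SE 0.14, adjusted p = 0.0449). The 3 probes of Masp2 gave interactions between -0.49, the probe tested, and -0.28. At 10 days their differences lay between -0.34 and 0.17, the last from the probe tested. With slide as a block only C8g was still called (-0.84, adjusted p = 0.028), and with median centring in place of loess 0 were. For Klkb1 and F13b, which fell at both times, the interaction of Klkb1 was not called, and that of F13b missed the threshold (-0.54, adjusted p = 0.0508) but was called with marked spots kept (-0.54, adjusted p = 0.0378), a call lost in 13 of 17 alternatives with these spots. The 2 experiments were scanned separately, so each effect is a difference within its own scan.

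Multiple binges over 8 weeks were tested against the same 8-week pair-fed livers. Of 23 members tested, 1 was higher and 5 were lower, beside 20.5% of all genes called, 8.01% higher and 12.5% lower, and the members' median log2 difference was 0.01, beside -0.01 over all genes. When the marked spots were kept, 10 of 38 members were called, beside 21.3% of all genes. The multiple-binge arrays were the only ones of their scan, and the Cy3 signal of the common reference itself differed there, so the members called are given with the change of both channels.

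Cfd, adipsin, had the lowest values, -1.89, -2.10, -2.29 and -1.54 in multiple-binge livers, against 1.08, -0.62, 0.69 and -0.14 in 8-week pair-fed livers. The difference was -2.21 (SE 0.44, adjusted p = 0.00152), with -2.45 in Cy5 and -0.24 in Cy3. Of 5 adipocyte markers 4 were on the array, with mean log2 ratios of -0.29 to -0.11 in multiple-binge livers and -0.12 to 0.12 in 8-week pair-fed livers, and 1 of the 4 was called lower (Retn, -0.47, adjusted p = 0.0311) and 0 higher, while Adipoq differed by -0.33 (adjusted p = 0.13). With marked spots kept, 2 of the 4 marker differences were positive and 2 were negative. All 4 markers were well above background on at least 23 arrays, and their part in the Cfd result was not tested.

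C6 had -1.63, -1.04, -1.52 and -0.79 in multiple-binge livers, against 0.99 and -0.10 on the 2 unmarked arrays of 8-week pair-fed livers, which is -1.69 (SE 0.35, adjusted p = 0.00215), with -2.42 in Cy5 and -0.73 in Cy3. F11 had -0.68, -0.67, -0.81 and -0.59 in multiple-binge livers, against 0.01, 0.52, 0.28 and -0.03 in 8-week pair-fed livers, which is -0.88 (SE 0.20, adjusted p = 0.0032), with -0.76 in Cy5 and 0.13 in Cy3. The calls of Cfd, C6 and F11 held under every alternative run for them. Slide as a fixed block was not among these, because the slides of the multiple-binge arrays held no other group. C3 was the member called higher, with 0.38, 0.34, 0.36 and 0.11 in multiple-binge livers, against -0.56, -0.38, 0.03 and -0.58 in 8-week pair-fed livers, which is 0.67 (SE 0.19, adjusted p = 0.0156), with 1.05 in Cy5 and 0.38 in Cy3. The call of C3 was lost with the scanner software's own ratio (0.52, adjusted p = 0.0549) and with the deposited values (0.52, adjusted p = 0.0541).

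C8g and F13b were called lower as ratios but not as liver signal. C8g had -0.27, -0.03, -0.19 and 0.14 in multiple-binge livers, against 0.70, 0.62, 0.61 and 0.84 in 8-week pair-fed livers, a ratio difference of -0.78 (SE 0.11, adjusted p = 8.23e-05), while its Cy5 differed by 1.00 and its Cy3 by 1.78. F13b had 0.03, -0.17 and 0.07 on the 3 unmarked arrays of multiple-binge livers, a ratio difference of -0.39 (SE 0.11, adjusted p = 0.0153), while its Cy5 differed by 0.97 and its Cy3 by 1.35. The sign of these 2 results depends on whether the reference channel is used. Of the members called in 8-week binge livers, Serpind1, F7, F10 and Proc could not be tested here without marked spots, and with them Proc (-0.42, adjusted p = 0.0271), Klkb1 (-0.48, adjusted p = 0.0352) and Mbl2 (-0.43, adjusted p = 0.0364) were called lower and C2 higher (0.25, adjusted p = 0.0479) as ratios. By channel, Proc differed by -1.10 in Cy5 and -0.68 in Cy3 and Mbl2 by -0.42 in Cy5 and 0.00 in Cy3. The liver signal of Klkb1 went the other way from its ratio, with 0.72 in Cy5 and 1.21 in Cy3, and so did that of C2, with -0.02 in Cy5 and -0.27 in Cy3. Without multiple-binge replicate 3 the difference of Proc was -0.22 (adjusted p = 0.123), and the call of Proc was lost in 5, of Klkb1 in 4, of Mbl2 in 8 and of C2 in 8 of 9 alternatives (an array left out or median centring, marked spots kept).

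**Figure D4:**
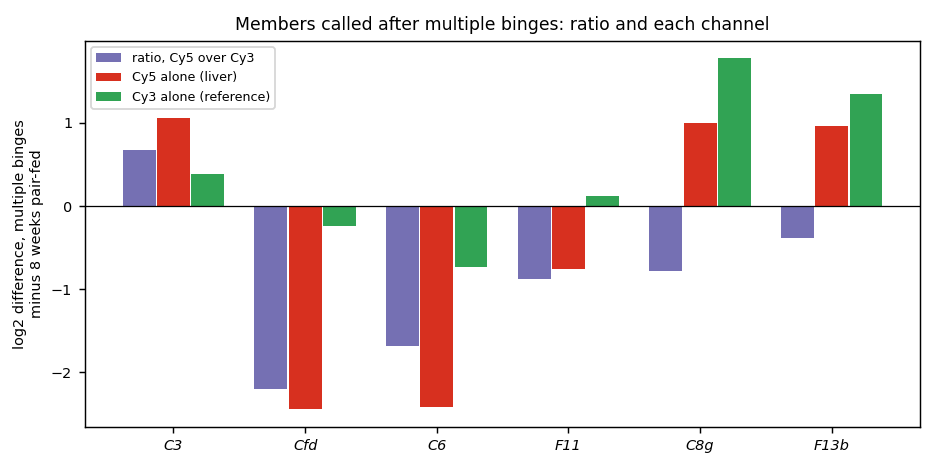
Log2 difference of multiple-binge livers minus 8-week pair-fed livers for the 6 members called, as the Cy5 over Cy3 ratio, as Cy5 (liver) alone and as Cy3 (reference) alone. For Cfd, C6 and F11 the ratio and the liver channel are both negative, for C3 both are positive, and for C8g and F13b the ratio is negative (-0.78 and -0.39) while the liver channel is positive (1.00 and 0.97).

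Against 8-week ethanol livers, multiple-binge livers had 5 of 22 members called, 2 higher and 3 lower, beside 24.9% of all genes called, 10.2% higher and 14.7% lower, and with marked spots kept 7 of 38 were called, beside 25.9%. Cfd differed by -2.58 (SE 0.42, adjusted p = 0.000207) and kept its call under every alternative run. C3 differed by 0.58 (adjusted p = 0.023) and Kng1 by 0.48 (adjusted p = 0.0453, Cy5 alone -0.29). The call of Kng1 was lost in 22 of 29 alternatives and its sign turned in 1, and the call of C3 was lost in 6 of 29. C8g and F13b were lower as ratios (-0.57 and -0.40) and higher in Cy5 alone (1.24 and 0.85).

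Against 8-week binge livers, multiple-binge livers had 10 of 23 members called, 9 higher and 1 lower, beside 29.4% of all genes called, 12% higher and 17.4% lower. With marked spots kept, 24 of 38 were called, 22 higher and 2 lower, beside 30.1% of all genes called, 12.8% higher and 17.4% lower. The median log2 difference was 0.32 for the 23 members tested without marked spots and 0.42 for the 38 with them, each beside -0.01 over all genes. The 9 higher members were C3 (0.81), Kng1 (0.80), Vtn (0.73), Klkb1 (0.71), F13b (0.55), Serpinc1 (0.51), Cfb (0.47), Plg (0.45) and Masp2 (0.32), with adjusted p-values between 0.000567 and 0.0418, and Cfd was lower (-1.15, adjusted p = 0.0404). In Cy5 alone Masp2 turned to -0.59, and Kng1 (0.13, adjusted p = 0.509), Plg (0.08, adjusted p = 0.692) and Serpinc1 (0.24, adjusted p = 0.173) were not called. Klkb1 (1.83), F13b (1.79), C3 (1.16) and Cfb (0.63) had larger differences in Cy5 alone than as ratios. The Cy3 signal of the reference also differed on the multiple-binge scan, and a difference in Cy5 alone does not correct for that. The call of Plg was lost in 18 of 29 alternatives. That of Cfd was lost in 15 of 29, each of them with 1 array left out. After marked spots were included, Serpind1 had -0.11, 0.08, -0.06 and 0.07 in multiple-binge livers and was higher than in 8-week binge livers by 1.07 (SE 0.09, adjusted p = 2.45e-07). All 4 of these multiple-binge values came from marked spots, and multiple binges and their scan cannot be told apart.

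The other genes of the 2 cascades included rises after a binge. Of 55 such genes listed, 45 were tested in 8-week binge livers against 8-week pair-fed livers, with 6 higher, 6 lower and a median log2 difference of -0.02, beside 16.2% of all genes called. Among the largest differences were those of Thbd (2.27, adjusted p = 0.000258), the endothelial thrombin receptor thrombomodulin, the fibrinogen chains Fgb (1.80, adjusted p = 0.00904) and Fgg (1.59, adjusted p = 0.0213), F2r (0.95, adjusted p = 0.00059), a thrombin receptor, and Colec10 (-0.92, adjusted p = 1.33e-05), a collectin of the lectin pathway. F3, tissue factor, and Tfpi, its pathway inhibitor, were not called (0.27 and 0.07).

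In 10-day binge livers against 10-day pair-fed livers 9 of 47 of these genes were higher and 0 lower, beside 7.22% of all genes called, led by Fgb (2.45, adjusted p = 0.00891), Fga (2.34, adjusted p = 0.0165) and Fgg (2.11, adjusted p = 0.028). Serpina10, the protein Z-dependent inhibitor (1.01), Fcna, a ficolin (0.94), and F2r (0.89) came next. In 8-week ethanol livers against 8-week pair-fed livers 0 of 45 were called, beside 0.153% of all genes. In multiple-binge livers against 8-week pair-fed livers 5 of 42 were higher and 7 lower, beside 8.01% of all genes higher and 12.5% lower, among them Itgam (-0.96, adjusted p = 0.00103), a chain of complement receptor 3. The interaction had 6 of 44 called, all negative, beside 3.35% of all genes called, among them Colec10 (-1.16) and Ggcx (-1.07), the enzyme that carboxylates the clotting factors, and Vkorc1 (-0.50), the enzyme that recycles vitamin K. The counts against 8-week ethanol livers were 8 higher and 11 lower of 46 for 8-week binge livers (16.4% of all genes called) and 4 higher and 9 lower of 43 for multiple-binge livers (24.9%). Multiple-binge livers had 6 higher and 11 lower of 44 against 8-week binge livers (29.4%).

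Of a list of 22 transcription factor and acute phase genes, 7 of 20 tested were higher and 0 lower in 8-week binge livers against 8-week pair-fed livers, where 16.2% of all genes were called. They included Lcn2 (4.22, adjusted p = 0.000506), an iron-binding acute phase protein, Stat3 (0.95, adjusted p = 0.000274), Cebpd (0.84, adjusted p = 0.00525) and Rela (0.55, adjusted p = 0.0011), the last 3 being transcription factors of the acute phase. Hnf4a (0.38, adjusted p = 0.115) and Foxa1 (0.07), liver transcription factors, were not called. In 10-day binge livers against 10-day pair-fed livers 10 of 21 were higher and 0 lower, led by Saa3 (5.11, adjusted p = 0.0139), beside 7.22% of all genes called. The count was 6 higher and 0 lower of 20 in multiple-binge livers (20.5% of all genes called) and 0 of 20 in 8-week ethanol livers (0.153% of all), each against 8-week pair-fed livers.

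The median log2 ratio of the 11 acute phase genes of this list, of which 8 to 11 had an unmarked value on each array, was 1.45, -1.63, -0.30, 0.06 and 0.85 on the 5 arrays of 8-week binge livers and -1.46, -0.87, -0.92 and -2.37 on the 4 arrays of 8-week pair-fed livers. On the same 5 binge arrays, marked spots kept, 6 of the 38 members (C3, C8b, Vtn, Plg, Serpinf2 and Cpb2) stood in the same order as the acute phase median and 1 (C1qc) in the opposite order. C8b, for example, was 0.27, -2.98, -1.81, -1.43 and -0.52 there, and C3 was -0.00, -1.05, -0.92, -0.35 and -0.09. Neither these 6 members nor C1qc were called in 8-week binge livers against 8-week pair-fed livers. The share of all genes in either order was not computed. At 10 days the acute phase median was -0.91, 1.21 and 1.40 in binge livers and -1.97, -1.62 and -1.99 in pair-fed livers. The part of the acute phase genes in the members' results was not tested.

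Markers of other cells were set beside the members. In 8-week binge livers against 8-week pair-fed livers, where 16.2% of all genes were called, hepatocyte markers had 1 higher (Apoc3, 0.40) and 1 lower (Asgr1, -0.48) of 7. Macrophage and Kupffer cell markers, which bear on C1q, had 1 higher (Cd163, 0.77) and 2 lower (Cd5l, -0.77, and Adgre1, -0.68) of 7, and their mean log2 ratio was -0.40 to 0.36 in 8-week binge livers and -0.21 to 0.40 in 8-week pair-fed livers. Neutrophil markers had 2 higher (S100a9, 1.12, and S100a8, 0.61) of 6, with means of -0.10 to 0.49 in 8-week binge livers and -0.30 to -0.11 in 8-week pair-fed livers. Sinusoidal endothelial markers had 1 higher (Lyve1, 2.29) and 2 lower (Clec4g, -0.79, and Fcgr2b, -0.76) of 7, stellate cell markers 1 lower (Reln, -0.67) of 6, and adipocyte, lymphocyte and platelet markers 0 of 4, 0 of 5 and 0 of 3. The least detected platelet marker was well above background on 3 arrays, the least detected neutrophil marker on 11 and the least detected macrophage marker on 15. The part of these cells in the members' results was not tested.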

How the data were processed

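Liver RNA of 24 samples was hybridized in Cy5 against a reference RNA in Cy3, 1 array per sample. In the labels the reference is a bought RNA of assorted mouse tissues, while another field of that channel says liver, so its makeup is uncertain. The spot intensities were deposited as read by Agilent Feature Extraction 11.5.1.1, per the file headers, as median signals and median local backgrounds of each channel, with marks for non-uniform and outlying spots. That software also wrote the deposited log10 ratios, red over green, per the file headers. A deposited table of log2 values followed the log2 ratio of the software's processed signals with a slope of 1.00 on each array, its column medians lay between -0.0876 and 0.0734, and how it was made is not given in the sources used here. The dyes in the labels give the direction of the ratio.

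For the values reported, median intensities were corrected with normexp (offset 50) and normalized by loess within each array in limma 3.58.1 under R 4.3.3, with version 1.17.8 of data.table, statmod 1.5.0 and jsonlite 2.0.0. Control spots and marked spots, 1.52% to 7.78% per array, had no weight, and marked spots were left out before the spots of a probe were averaged. A probe was used where its Cy5 was well above background on 3 or more arrays, which 36620 of 41174 probes were, and where its accession matched 1 symbol of the GRCm38.p6 assembly of RefSeq, which left 22944. Where a gene had several such probes, as 5351 genes did, its brightest probe with 2 or more values per group stood for it. The median signal per array was 95.5 to 247 in Cy5 and 161.5 to 505 in Cy3, 70.7% to 86.8% of probes were well above background, and the number of arrays limits the precision. The lowest correlation between arrays was -0.19.

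Groups came from the labels. In limma, 1 model of 6 group means over 24 arrays, moderated by empirical Bayes, served all 8 comparisons, with calls at a Benjamini-Hochberg adjusted p under 0.05 across the genes tested. The model was tested on simulated data. Replicate numbers recur across groups and are not stated to pair the samples. Of 52 same-numbered pairs of arrays, 16 deviated together with a correlation over 0.1. The median correlation was 0.031 for same-numbered pairs, 0.0003 for other pairs and 0.113 for pairs on the same slide. Some same-numbered arrays share a slide, so these values cannot decide whether the numbers pair the samples. The members and lists were chosen with earlier results of these data known. Every member is accounted for, and those called against a pair-fed group, or among the 12 lowest adjusted p-values, have their arrays printed. The other genes of the cascades were named by the size of their difference among called ones, up to 6, with up to 2 not called. Of 55 such genes 52 were on the array, and the others were not analysed here. Some results of these lists and of the motif search are not reported here. Promoters came from RefSeq, build GRCm38.p6, with motif letters searched on both strands. Alternatives changed the normalization, the channel, the background filter, the marked spots, the probe rule, the blocks, the groups fitted and the arrays kept. Keeping marked spots together with a slide block, with median centring or with an array left out was added after the marked spots were seen to remove many members. The change of each channel with marked spots kept is a difference of group means of the normalized log2 intensities, with no test.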

Additional observations from a re-analysis of the deposited data

Results flagged for a closer look

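In 90 checks of a member within an 8-week group of 4 or 5 unmarked arrays, 5 arrays lay far from the others of their group, and chance flags about 1 in 20 such groups. Serpind1 was -0.80 in 8-week binge replicate 4, with the others at -1.18 to -1.07, and F11 was -1.41 in 8-week binge replicate 2, with the others at -0.35 to -0.19. C3 was 0.11 in multiple-binge replicate 4, with the others at 0.34 to 0.38. Mbl2 was 0.19 in 8-week ethanol replicate 2, with the others at 0.56 to 0.62, and Kng1 was -0.65 in 8-week ethanol replicate 5, with the others at -0.23 to -0.15.

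For 6 members the effect of ethanol with 1 binge differed between 8 weeks and 10 days by the interaction test in limma. The difference, 8 weeks minus 10 days, was -0.88 for C8g (adjusted p = 0.00163), -0.77 for Serpind1 (adjusted p = 0.00811), -0.85 for F10 (adjusted p = 0.0156), -1.20 for F11 (adjusted p = 0.0206), -0.49 for Masp2 (adjusted p = 0.0428) and -0.51 for F2 (adjusted p = 0.0449). The 3 probes of Masp2 ranged from -0.49 to -0.28. Of these 6 calls 0 held under every alternative run, and those of F2 and Masp2 were each lost in 24 of 43.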

How the results depend on the processing

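Of 57 calls of members over the comparisons, 16 held under every alternative run. The number of arrays per group, 3 to 5, and the marked spots limit what could be tested. Counts of members called follow. At 10 days against pair-fed the main count of 3 became 0 with median centring, 1 with only the groups compared and 1 with marked spots kept and median centring. It was 1 without pair-fed replicate 1 or 3 or without binge replicate 2 or 3. For 8-week ethanol against pair-fed it was 0 and became 1 with marked spots kept, alone or with median centring. For 8-week binge against pair-fed it was 12, became 7 with median centring and 21 with marked spots kept, and was 8 without pair-fed replicate 3. For multiple binges against pair-fed it was 6 and became 14 with Cy5 alone and 10 with marked spots kept. For 8-week binge against ethanol alone it was 15 and became 6 with median centring and 9 with marked spots kept and median centring. For multiple binges against ethanol alone it was 5 and became 2 with the software's ratio, 13 with Cy5 alone and 9 with only the groups compared, 3 without ethanol replicate 3 or 5 or multiple-binge replicate 1, and 2 without multiple-binge replicate 3. For multiple binges against 1 binge it was 10 and became 5 with median centring and 24 with marked spots kept. The interaction count of 6 became 1 with slide as a block, 0 with median centring, 3 with the software's ratio, 2 with Cy5 alone, 14 with marked spots kept, 3 with only the groups compared, 2 with marked spots kept and slide as a block and 0 with marked spots kept and median centring. It was 3 without 10-day pair-fed replicate 2 and 11 without 8-week binge replicate 4.

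Leaving out each array in turn gave 1 to 3, 0 to 0, 8 to 16, 5 to 6, 13 to 19, 2 to 5, 8 to 11 and 3 to 11 members called in these 8 comparisons in the same order, and with marked spots kept 1 to 5, 0 to 1, 16 to 22, 6 to 10, 20 to 25, 4 to 7, 17 to 24 and 6 to 16, where the count of 20 to 25 was 23 without ethanol replicate 1 or without binge replicate 5. The replicate block gave 3, 0, 13, 6, 15, 4, 9 and 5. Its numbers are not stated to pair the samples (median correlation 0.031 for same-numbered pairs). With Cy5 alone the sign turned for C8g (1.00) and F13b (0.97) against pair-fed and for C8g (1.24), F13b (0.85) and Kng1 (-0.29) against ethanol alone after multiple binges, and for Masp2 (-0.59) against 1 binge. The cause of these changes was not tested.

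Counts of all genes called moved by over 1.5 times too. They fell to 367, 1216 and 1324 with median centring, against 1131 at 10 days, 2553 for 8-week binge against pair-fed and 2600 against ethanol alone. With Cy5 alone they were 7713, 8138 and 8119 for multiple binges against pair-fed, ethanol alone and 1 binge, where the main counts were 3151, 3846 and 4569, and 428, 1410 and 1381 for the 3 comparisons named before. For 8-week ethanol the 24 genes became 43 with marked spots kept, 41 with slide as a random block, 14 with Cy5 alone, 13 with the deposited values and 11 with the replicate block, median centring or the software's ratio. The interaction's 517 became 179 with slide as a block, 154 with median centring and 191 with Cy5 alone, the 1131 at 10 days became 594 with slide as a block, and the 2553 became 1630 with only the groups compared. It was 2930 for multiple binges against 1 binge without multiple-binge replicate 4 and 1930 against pair-fed without pair-fed replicate 2. At 10 days it was 552 and 734 without binge replicates 2 and 3 and 580 and 695 without pair-fed replicates 1 and 2, for 8-week ethanol 12, 8 and 12 without ethanol replicates 2, 3 and 4 and 5 and 6 without pair-fed replicates 2 and 3, and for the interaction 336 and 311 without 10-day pair-fed replicates 1 and 2. The share of higher calls shifted from 39.1% to 53.9%, from 40.9% to 56.4% and from 40.9% to 57.0% with the software's ratio after multiple binges (54.1%, 56.4% and 58.2% with the deposited values), and with median centring to 72.8% (main 59.8%) at 10 days, to 62.3% (main 49.0%) for 8-week binge against ethanol alone and to 29.0% (main 40.9%) for multiple binges against 1 binge. Marked spots kept with median centring gave 413, 1433 and 1507 genes, 206 for the interaction and 14 for 8-week ethanol, and marked spots kept with slide as a block gave 708 at 10 days, 262 for the interaction and 15 for 8-week ethanol. Median centring moved the median of all genes by -0.11, -0.104 and -0.14 in the 3 comparisons of multiple binges.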
